A study of Arvicanthis niloticus with 28 samples.

Results

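The genes described here are 43 genes of the cell division cycle, measured in RNA of the retinal vasculature of 28 Nile rats (Arvicanthis niloticus), a diurnal rodent that can develop diabetes on an energy-rich diet. They were taken as a list of symbols, and all 43 were found among the 18970 genes of the expression tables. By role, 26 act in mitosis or the entry into it, 10 in DNA replication and nucleotide supply, 3 are D cyclins and 4 are inhibitors of cyclin-dependent kinases (CDK inhibitors). The study asked which vascular transcripts precede the loss of retinal capillaries, which it measured as the density of acellular capillaries, the empty tubes left behind when capillary cells die. The pre-dropout rats (n = 4) had 17.1 to 17.9 acellular capillaries per square millimeter, were all male and had a random blood glucose of 57.4 to 443 mg/dL. The normal rats (n = 24, of which 8 were male and 16 female) had 5.90 to 14.5 per square millimeter and a random blood glucose of 52 to 422 mg/dL. All rats of both groups were wild type and untreated by their labels, which give neither age nor diet, and each contributed 1 library. Every pre-dropout rat was male and most normal rats were female, so group and sex were partly tied, and normal males are given apart where their values differ.

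In a dividing cell, D cyclins and their kinases start the passage through G1, the MCM helicase opens DNA at replication origins, PCNA clamps the polymerases to it, and ribonucleotide reductase and thymidylate synthase supply the nucleotides. Cyclins A and B with the kinase Cdk1, the Aurora and Polo kinases, kinesins and kinetochore proteins then drive mitosis. CDK inhibitors hold cells out of this cycle. The endothelial cells and pericytes of the adult retina are known to divide rarely, and mitotic genes are transcribed mainly from S phase onward, whereas replication proteins, D cyclins and CDK inhibitors are also made by cells that do not divide. Whether any cell was quiescent or dividing was not measured. In these bulk libraries fewer cells of a type and less RNA per cell cannot be told apart.

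The libraries held 153116 to 10029213 counts, and counting error alone lets a gene with 0 counts reach 0.299 CPM (counts per 1e+06) in the largest library and 19.6 CPM in the smallest. The vessels had been freed from the retina by lysis in water, which washes neurons off. All 12 endothelial markers were found in all 28 rats, with a summed level of 19637 to 54306 transcripts per 1e+06 (TPM) in pre-dropout rats and 12077 to 50019 TPM in normal rats. The 9 pericyte markers summed to 2531 to 15287 TPM in pre-dropout rats and 2554 to 15097 TPM in normal rats, and the 8 rod markers to 285 to 1278 TPM in pre-dropout rats and 154 to 7291 TPM in normal rats. The 9 markers of Mueller glia and astrocytes summed to 4335 to 5810 TPM in pre-dropout rats and 2880 to 6926 TPM in normal rats, and the 9 erythroid markers to 2780 to 17817 TPM in pre-dropout rats and 182 to 23909 TPM in normal rats. The libraries thus held vascular markers throughout, together with those of glia, red blood cells and photoreceptors, and the part of these cells in the levels of the 43 genes was not tested.

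By the median of each role, the levels put CDK inhibitors first and mitotic genes last. In mean TPM over 28 rats, the median was 47.6 for the 4 CDK inhibitors, 21.05 for the 3 D cyclins, 5.96 for the 10 replication genes and 3.34 for the 26 mitotic genes, beside 10.2 for all genes with a count. TPM are scaled to the transcript lengths of the authors' pipeline, which were not checked, and the order between genes depends on them. In T370M 67 counts of Cdkn1a gave 145 TPM, whereas 65 counts of Cdkn1c gave 7.81 TPM. Cdkn1a, an inhibitor that is raised by p53 after DNA damage, had the highest mean (161 ± 195 TPM, SD, n = 28) and Cdkn1b, an inhibitor of resting cells, the second (82.7 ± 40.6 TPM). The inhibitors Cdkn2c (12.4 TPM) and Cdkn1c (8.38 TPM) lay below all 3 D cyclins, so the high median of this role came from Cdkn1a and Cdkn1b. Cdkn1a varied from 0 to 769 TPM over the rats, so its SD exceeded its mean, whereas Cdkn1b had the lowest coefficient of variation of all 43 genes (0.491). On the scale of counts Cdkn1a and Cdkn1b changed places, with 2714 and 9748 counts in all, so that Cdkn1a stood first per transcript length only. Cdkn1b alone stood above every mitotic gene in 23 of 28 rats, and the summed TPM of the 4 inhibitors stood above that of the 26 mitotic genes in 20 of 28.

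The replication gene with the highest level was Pcna (47.2 ± 34.98 TPM), followed by Rrm1, the large subunit of ribonucleotide reductase (26.7 ± 16.96 TPM), and the helicase subunit Mcm6 (19.9 ± 18.9 TPM). Rrm2, the small subunit of the same reductase, which cells make mainly in S phase, was the lowest of the 10 replication genes (0.941 ± 1.69 TPM). The 3 D cyclins lay close to each other, with Ccnd3 at 27.8 ± 32.4 TPM, Ccnd1 at 21.05 ± 25.03 TPM and Ccnd2 at 17.4 ± 17.6 TPM, differences well inside their spread over rats. Of the 26 mitotic genes 18 had a mean under 5 TPM and 3 a mean of at least 10 TPM. These 3 were Aurora kinase A, Aurka (25.8 ± 22.02 TPM), the kinetochore motor Cenpe (24.04 ± 21.8 TPM) and Mki67, which encodes the proliferation marker Ki-67 (13.9 ± 15.5 TPM). Top2a, the topoisomerase that untangles chromosomes before mitosis and marks dividing cells as Mki67 does, averaged 1.48 ± 1.86 TPM.

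**Figure D1:**
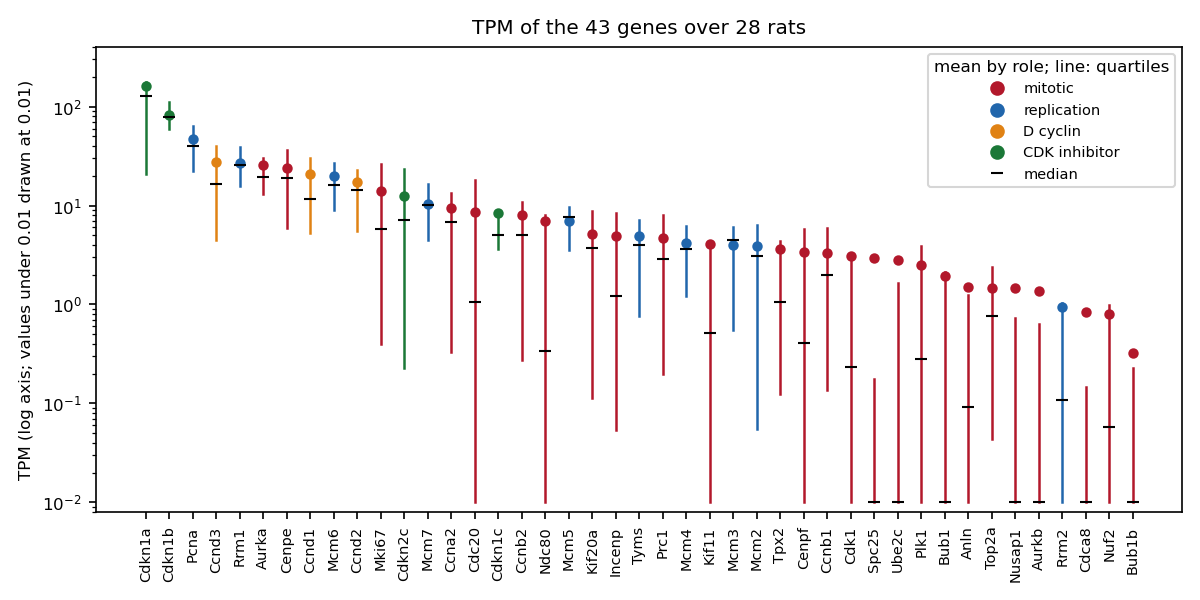
TPM of each of the 43 genes over 28 rats on a log axis, with the mean as a point colored by role, the median as a dash and the quartiles as a line. Values under 0.01 TPM are drawn at 0.01. The means run from 161 TPM for Cdkn1a to 0.325 TPM for Bub1b, and 18 of the 26 mitotic genes lie under 5 TPM.

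A gene was counted as detected in a rat with at least 1 count. By this measure 28 (T407M), 29 (T353M), 36 (T389M) and 42 (T391M) of the 43 genes were detected in the pre-dropout rats, against a lowest, median and highest of 21, 30 and 43 in the normal rats. The mean was 33.8 ± 6.55 (SD, n = 4) in pre-dropout rats and 31.5 ± 6.98 (SD, n = 24) in normal rats, a difference smaller than either SD. All 43 genes were detected in the normal female T414F, and 21 in the normal male T448M. The number followed how many genes a library held at all: T414F had counts for 16139 genes and T448M for 7503, and over the 28 rats the members detected and the genes detected had a Pearson r of 0.86 and a Spearman rho of 0.77, both measures being taken from the same library. When each library was thinned to the 153116 counts of the smallest one, 20.1 to 25.6 members were expected in pre-dropout rats (mean 21.9) and 6.96 to 29.4 in normal rats (mean 19.3), so the pre-dropout rats again lay inside the normal range.

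**Figure D2:**
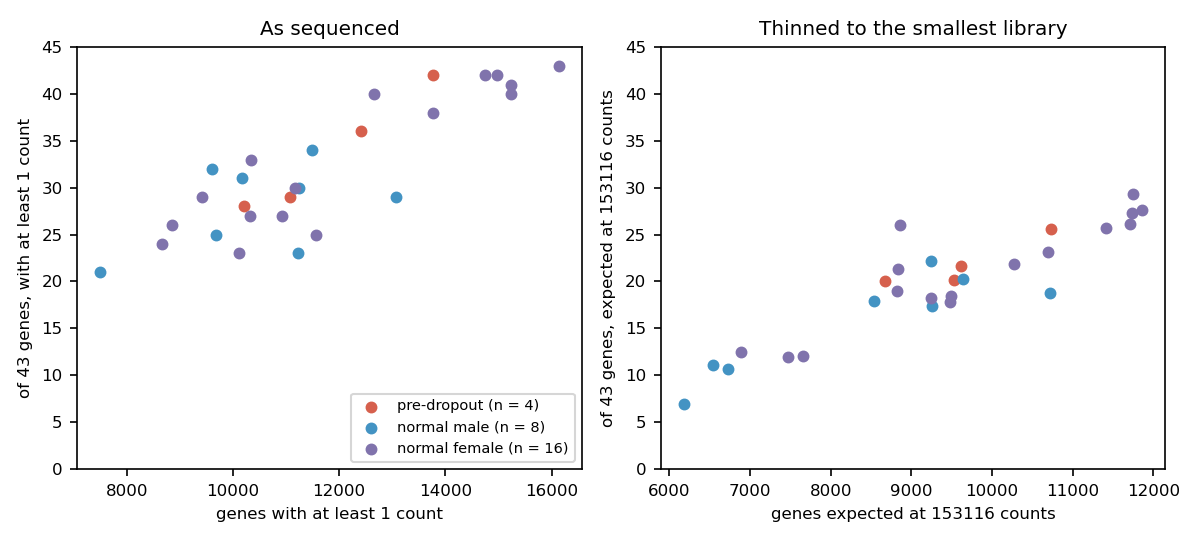
Number of the 43 genes detected in each rat against the number of all genes detected, with the libraries as sequenced (left) and thinned to 153116 counts (right). Each point is 1 rat, colored as pre-dropout (n = 4), normal male (n = 8) or normal female (n = 16). The pre-dropout rats have 28 to 42 members as sequenced and lie among the normal rats in both panels.

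Detection differed by role. The median number of rats with a count was 17.5 for mitotic genes, 26 for replication genes, 26 for D cyclins and 27 for CDK inhibitors, beside 22 for all genes with a count. Aurka and Rrm1 were the members detected in all 28 rats. The 7 members found in fewer than 14 rats were all mitotic: Spc25 (7 rats), Cdca8 (8), Bub1b (9), Nusap1, Aurkb and Ube2c (11 each) and Bub1 (13). Spc25 is a subunit of the outer kinetochore, Cdca8 and Aurkb belong to the chromosomal passenger complex, and Bub1 and Bub1b act in the spindle checkpoint. Of all pairs of a mitotic gene and a rat, 36.5% had a count of 0, 17.4% 1 or 2 counts and 30.5% at least 20 counts. For replication genes the same shares were 11.1%, 11.1% and 63.9%, and for CDK inhibitors 8.93%, 8.93% and 65.2%. Over all genes with a count they were 34.6%, 4.79% and 51.5%, so that the share of pairs at 0 was near that of all genes for the mitotic genes, and the share with 1 or 2 counts was higher.

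By group and sex, the mitotic genes were detected in 67.3% of pairs in pre-dropout rats (all male), 55.3% in normal males and 66.6% in normal females. The shares for replication genes were 92.5% in pre-dropout rats, 81.2% in normal males and 91.9% in normal females. The D cyclins and the CDK inhibitors had a count in every pre-dropout rat, whereas D cyclins were detected in 79.2% of pairs in normal males and 95.8% in normal females, and CDK inhibitors in 81.2% of pairs in normal males and 93.8% in normal females. The shares of the pre-dropout males thus lay nearer to those of normal females than to those of normal males. The number of all genes with a count also differed. It was 10209 to 13757 in pre-dropout rats, 7503 to 13071 in normal males and 8664 to 16139 in normal females. The shares over all genes were not computed by sex, so the order of the shares cannot be read as particular to the members. The libraries differed in depth, and no test was made of these shares.

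**Figure D3:**
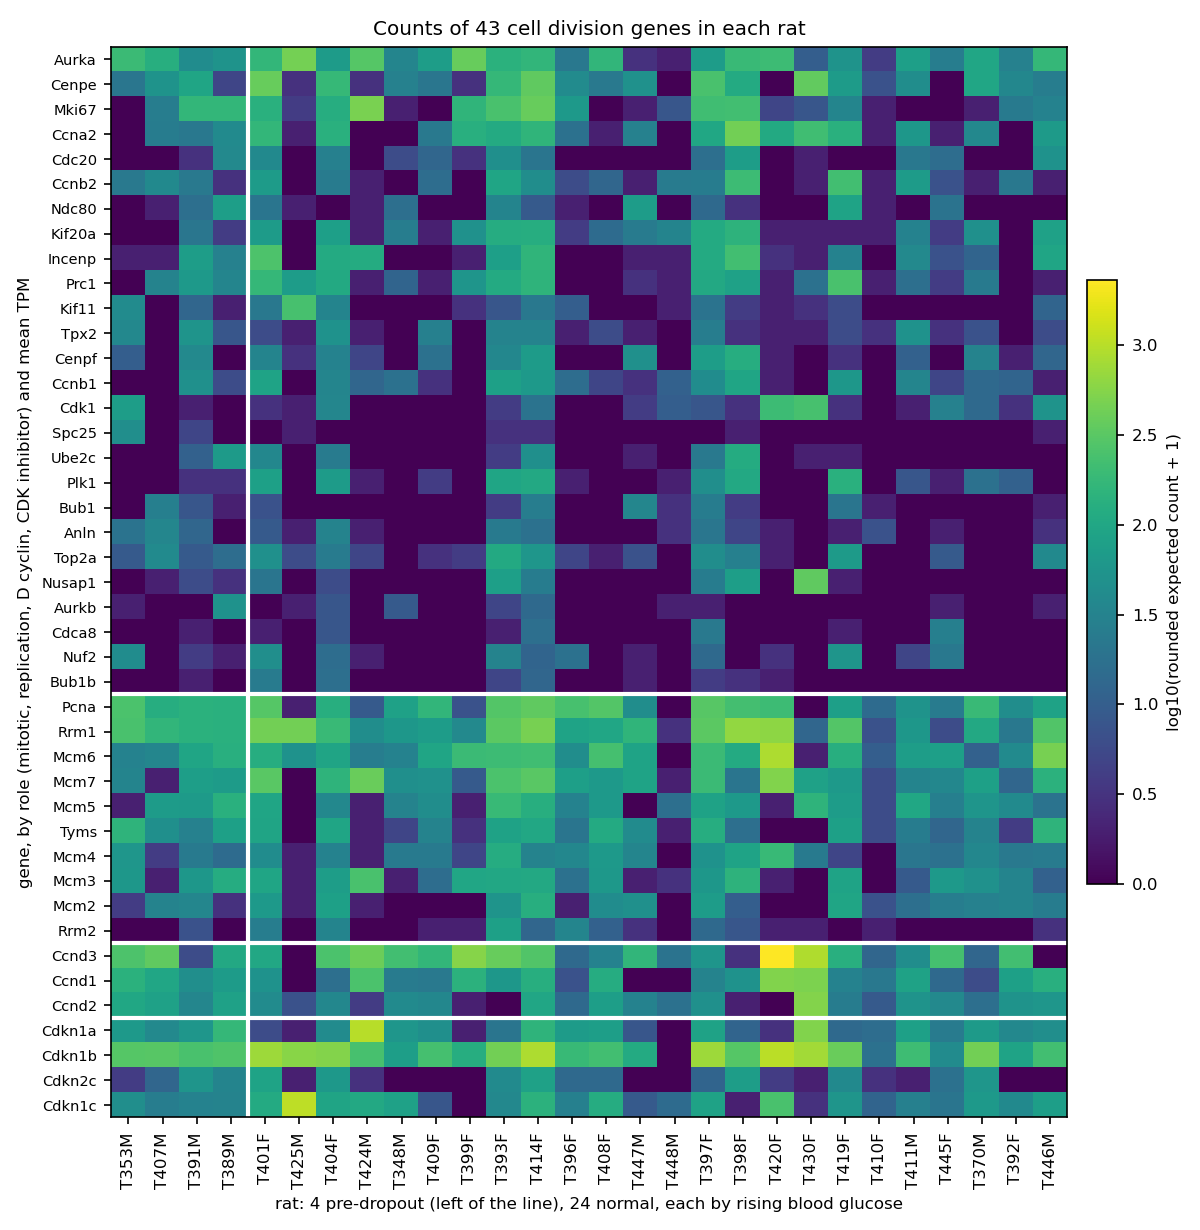
Rounded counts of the 43 genes in each rat as log10(count + 1), with genes in rows by role and mean TPM and rats in columns, the 4 pre-dropout rats left of the white line and the 24 normal rats right of it, each by rising blood glucose. The mitotic block holds most of the empty cells (36.5% of its pairs), and its filled cells change from rat to rat.

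The mitotic genes were high together in some rats and singly in others. In the normal females T393F, T397F and T404F 18 of the 26 had at least 20 counts, in T401F and T414F 17 and in T398F 15, whereas 2 did in T408F and T448M and 0 in T410F. Total counts were 4870822 to 9312692 in these 6 rats, against 3667300 in T408F, 934258 in T448M and 153116 in T410F. Some deep libraries had few such genes as well: 3 each in T424M (10029213 counts), T425M (7894786) and T420F (6552950). Mki67 and Top2a were both detected in 17 rats, Mki67 without Top2a in 6, Top2a without Mki67 in 4 and neither in 1. At least 20 counts of both were present in 9 rats, of Mki67 alone in 6 and of Top2a alone in 0. Over 28 rats the median Spearman rho between the CPM of any 2 mitotic genes was 0.26 (325 pairs), beside 0.19 between replication genes (45 pairs), 0.09 between a mitotic and a replication gene (260 pairs), −0.17 between a mitotic gene and a D cyclin (78 pairs) and 0.06 between all genes tested. The 3 D cyclins had a median of 0.43 over their 3 pairs. These are descriptions over libraries of unequal depth, and with so many zeros they are weak.

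Beside the rats in which most mitotic genes had counts, single rats carried much of the signal of some genes. The normal male T424M had 491 counts of Mki67, the most of any rat, with 0 counts of Ccna2 and Cdk1 and 4 of Top2a, and 20 of its 26 mitotic genes had 0 to 2 counts. The normal female T430F had the reverse makeup, with 362 counts of Cenpe, 345 of Nusap1, 239 of Cdk1 and 213 of Ccna2, 7 of Mki67 and 0 of Top2a. The pre-dropout rat T353M had 73 counts of Cdk1, 45 of Spc25, 42 of Nuf2 and 41 of Kif11 but 0 of Mki67. Over all rats, T353M held 80.4% of the counts of Spc25, T430F 59.4% of those of Nusap1, T389M 57.3% of those of Aurkb and T425M 56.0% of those of Kif11. A different gene led the mitotic set from rat to rat: by TPM it was Cenpe in 10 rats, Aurka in 8, Mki67 in 4, Ccnb2 in 2 and Ccna2, Cdc20, Ndc80 and Spc25 in 1 each.

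Pre-dropout rats were compared with normal rats with edgeR's quasi-likelihood test on counts. Of 13800 genes tested, 0 (0%) passed an adjusted p of 0.05 with more than 2-fold change, and 394 (2.86%) had an unadjusted p under 0.05 (27, or 0.196%, higher in pre-dropout rats and 367, or 2.66%, lower). The biological coefficient of variation common to all genes was 1.32. Of the 43 members 39 were tested, since Aurkb, Bub1b, Cdca8 and Spc25 fell to the filter on low counts, and 0 of them passed, 0 with an unadjusted p under 0.05. The fitted change was above 0 in 21 of the 39, with a median log2 fold change of 0.26, beside 41.1% and −0.13 for all genes tested. In no member did all pre-dropout rats lie above or below every normal rat, as in 0% of all genes tested. DESeq2 called 5 genes, of which 0 were members. It gave 394 of 13800 genes an unadjusted p under 0.05, among them 2 of the 39 members, Plk1 and Kif20a. With sex as a covariate edgeR called 0 genes, 27 of 39 members had a fitted change above 0, and 10 members changed sign. In that fit 601 genes had an unadjusted p under 0.05, among them 3 members: Ube2c with a log2 fold change of 5.96 (unadjusted p = 0.00541), Nusap1 with 4.52 (unadjusted p = 0.0186) and Anln with 4.13 (unadjusted p = 0.0380). These estimates rest on few counts in males: of 8 normal males, Ube2c had a count in 1, Nusap1 in 0 and Anln in 4. Nusap1 had 8 counts in all pre-dropout rats. With males only, 0 of 29 members tested had an unadjusted p under 0.05, beside 118 of 11530 genes. The summed TPM of the 26 mitotic genes was 131 to 200 in pre-dropout rats (median 175) and 59.2 to 260 in normal rats (median 129), so the groups overlapped fully.

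Among the mitotic genes, 11 of 22 tested had a fitted change above 0 (median log2 fold change 0.09). Mki67 stood at 0, 39.01, 49.1 and 11.2 CPM in the pre-dropout rats T353M, T389M, T391M and T407M, against a lowest, median and highest of 0, 6.43 and 53.4 CPM in normal rats, where CPM are scaled by TMM. The pre-dropout values thus spanned nearly the whole normal range, and the log2 fold change came to 0.82 (standard error 1.25, unadjusted p = 0.516). Top2a stood at 1.90, 3.46, 2.38 and 17.3 CPM in the same order of pre-dropout rats, against 0, 0.818 and 14.3 CPM in normal rats. The 4 values exceeded the normal median, with a log2 fold change of 1.004 (standard error 1.40, unadjusted p = 0.478), and T407M held 69.1% of the summed pre-dropout CPM. Without T407M the log2 fold change of Top2a was −0.17.

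Aurka stood at 46.9, 12.2, 12.5 and 55.4 CPM in pre-dropout rats, against 0.840, 19.6 and 103 CPM in normal rats, and its log2 fold change came to 0.37 (standard error 0.78, unadjusted p = 0.639). Cenpe had 4.76, 0.923, 27.7 and 22.5 CPM in pre-dropout rats, against 0, 16.7 and 46.02 CPM in normal rats, with a log2 fold change of −0.30 (standard error 1.17, unadjusted p = 0.799). Neither gene separated the groups. The smallest p of the 39 genes tested belonged to Plk1, the Polo-like kinase that acts from mitotic entry to exit. It had 0, 0.462, 0.595 and 0 CPM in pre-dropout rats, which is 4 counts over the 4 rats, against 0, 0.823 and 24.4 CPM in normal rats, and a log2 fold change of −3.94 (standard error 2.27, unadjusted p = 0.0907), adjusted p = 1 from edgeR. Its median was 0.0544 CPM in the 8 normal males and 3.81 CPM in the 16 normal females, so the male pre-dropout rats lay nearer to the normal males. Kif20a, a kinesin of the final step of cell separation, followed with 0, 0.693, 5.95 and 0 CPM in pre-dropout rats, against 0, 9.24 and 32.6 CPM in normal rats, and a log2 fold change of −2.40 (standard error 1.69, unadjusted p = 0.163). Here the median of normal males was 11.7 CPM and that of normal females 4.43 CPM.

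The remaining mitotic genes were patchy in both groups. Cdk1, the kinase of mitotic entry, had 17.4, 0, 0.298 and 0 CPM in pre-dropout rats, against 0, 0.372 and 30.02 CPM in normal rats, and its partner Ccnb1 had 0, 1.15, 13.98 and 0 CPM in pre-dropout rats, against 0, 4.71 and 11.8 CPM in normal rats. Each was thus carried by 1 pre-dropout rat, and not the same one. The cyclins Ccna2 and Ccnb2 had log2 fold changes of −1.06 (standard error 1.38, unadjusted p = 0.449) and −0.08 (standard error 1.46, unadjusted p = 0.958). The largest positive estimates were those of Ube2c at 1.72 (standard error 1.60, unadjusted p = 0.288), the actin-binding Anln at 1.701 (standard error 1.56, unadjusted p = 0.281) and the checkpoint kinase Bub1 at 1.40 (standard error 1.61, unadjusted p = 0.390), and the lowest after Plk1 and Kif20a was that of Nusap1, a spindle protein, at −2.22 (standard error 2.27, unadjusted p = 0.335), which had the opposite sign with sex as a covariate. Cdc20, Cenpf, Incenp, Kif11, Ndc80, Nuf2, Prc1 and Tpx2 lay between −0.28 (Cdc20) and 1.21 (Tpx2).

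The 4 genes below the filter were seen in few rats. Aurkb, the Aurora kinase of the passenger complex, had 0.238, 11.8, 0 and 0 CPM in pre-dropout rats, against 0, 0 and 4.97 CPM in normal rats. Spc25 had 10.7, 0, 1.19 and 0 CPM in pre-dropout rats, against 0, 0 and 0.259 CPM in normal rats, so 1 pre-dropout rat stood far above all others. Bub1b and Cdca8 had 1 count each in T391M (0.298 CPM) and 0 in the other pre-dropout rats, against a highest of 3.20 CPM and 16.9 CPM in normal rats. Without the filter on low counts Spc25 was the one member that edgeR called, with a log2 fold change of 5.40 and an adjusted p of 0.0148. T353M held 45 of its 56 counts.

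The 10 replication genes were all tested, and 5 had a fitted change above 0 (median log2 fold change 0.06). Pcna stood at 60.7, 31.4, 41.4 and 54.1 CPM in pre-dropout rats, against 0, 28.2 and 105 CPM in normal rats. Its 4 pre-dropout values fell between the normal median and the normal maximum, with a mean of 46.9 ± 13.1 CPM (SD, n = 4) against 32.2 ± 27.3 CPM (SD, n = 24). The log2 fold change of Pcna was 0.55 (standard error 0.89, unadjusted p = 0.540). Rrm1 had 59.7, 31.2, 41.9 and 69.2 CPM in pre-dropout rats, against 1.35, 37.4 and 91.1 CPM in normal rats, and a log2 fold change of 0.45 (standard error 0.66, unadjusted p = 0.498). Mcm6 had 7.14, 30.7, 27.7 and 14.7 CPM in pre-dropout rats, against 0, 24.2 and 131 CPM in normal rats, with a log2 fold change of −0.68 (standard error 0.92, unadjusted p = 0.462). These 3 genes were thus seen in every pre-dropout rat at levels inside the normal range. Rrm2 was found in 1 pre-dropout rat (0, 0, 1.79 and 0 CPM), against 0, 0.341 and 14.5 CPM in normal rats, with a log2 fold change of −2.09 (standard error 2.01, unadjusted p = 0.303). It was found in 2 of 8 normal males and 13 of 16 normal females, and with sex as a covariate its log2 fold change turned to 1.31. Mcm7 had 7.61, 15.9, 22.3 and 0.433 CPM in pre-dropout rats, all under the normal median (0, 23.7 and 78.3 CPM in normal rats), and a log2 fold change of −1.03 (standard error 0.99, unadjusted p = 0.307). Tyms, thymidylate synthase, had 36.6, 18.7, 8.63 and 19.9 CPM in pre-dropout rats, against 0, 8.64 and 35.2 CPM in normal rats, and the highest estimate of the 10, 1.05 (standard error 1.13, unadjusted p = 0.356). Mcm2, Mcm3, Mcm4 and Mcm5 lay between −0.40 (Mcm4) and 0.64 (Mcm5).

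The 3 D cyclins were detected in all pre-dropout rats. Ccnd1 stood at 33.5, 15.7, 13.4 and 42.4 CPM in pre-dropout rats, against 0, 8.61 and 107 CPM in normal rats, and its log2 fold change came to 0.26 (standard error 1.05, unadjusted p = 0.803). Ccnd2 had 23.8, 18.9, 10.1 and 35.9 CPM in pre-dropout rats, against 0, 8.42 and 60.5 CPM in normal rats, with a log2 fold change of 0.73 (standard error 1.10, unadjusted p = 0.511). Both exceeded the normal median in 4 of 4 pre-dropout rats and did not pass the test. Ccnd3 spread most, with 63.03, 24.7, 1.49 and 151 CPM in pre-dropout rats, against 0, 35.96 and 343 CPM in normal rats, and a log2 fold change of −0.05 (standard error 1.04, unadjusted p = 0.960).

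Of the CDK inhibitors, Cdkn1a stood at 14.7, 39.9, 16.96 and 16.01 CPM in pre-dropout rats, against 0, 13.5 and 109 CPM in normal rats. The 4 pre-dropout values exceeded the normal median, and the log2 fold change came to 0.12 (standard error 1.09, unadjusted p = 0.916). Cdkn1b had 70.2, 63.2, 74.4 and 133 CPM in pre-dropout rats, against 0, 71.2 and 152 CPM in normal rats, and a log2 fold change of 0.29 (standard error 0.51, unadjusted p = 0.579), the smallest standard error of all members in this comparison. Cdkn2c, an inhibitor of the G1 kinases, had 0.714, 7.39, 16.4 and 5.19 CPM in pre-dropout rats, against 0, 1.004 and 15.2 CPM in normal rats, and a log2 fold change of 0.84 (standard error 1.44, unadjusted p = 0.564). Cdkn1c, an imprinted inhibitor known for its role in development, was the even one of the group. It had 10.7, 7.16, 8.93 and 11.2 CPM in pre-dropout rats, all under the normal median (0, 12.9 and 139.7 CPM in normal rats), with a mean of 9.51 ± 1.86 CPM (SD, n = 4) against 21.5 ± 29.2 CPM (SD, n = 24). Its log2 fold change came to −1.16 (standard error 1.12, unadjusted p = 0.307), and the normal rat T425M alone held 139.7 CPM.

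**Figure D4:**
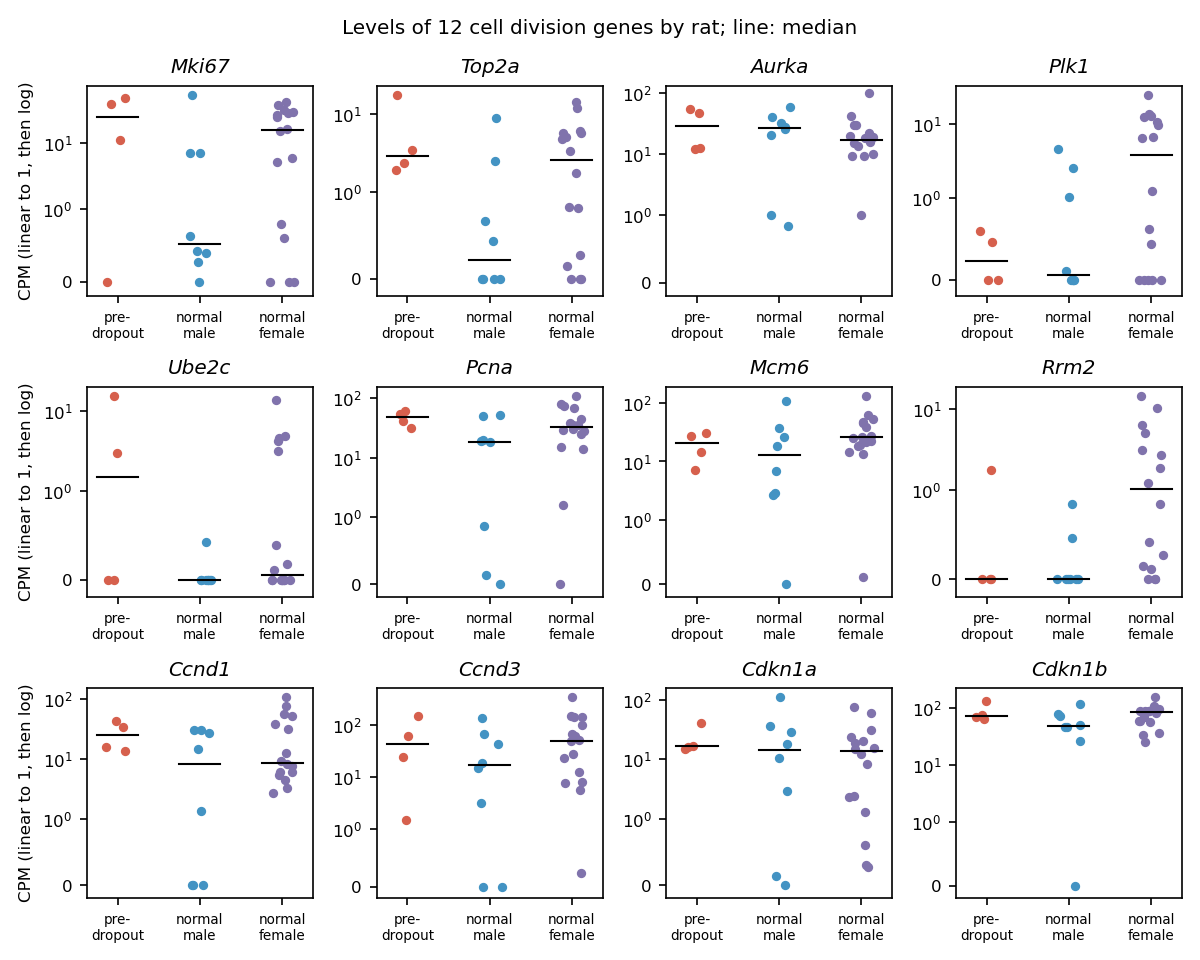
CPM of 12 of the 43 genes in each rat, on an axis that is linear up to 1 CPM and logarithmic above it, with pre-dropout rats (n = 4) left, normal males (n = 8) in the middle and normal females (n = 16) right. Each point is 1 rat and each line a group median. The pre-dropout points lie within the range of the normal rats in 10 panels, and 1 point lies above it for Top2a (T407M, 17.3 CPM) and for Ube2c (T389M, 15.2 CPM).

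Within the normal range, the slope on acellular capillary density was fitted over the 24 normal rats with sex as a covariate, in log2 units per 5 acellular capillaries per square millimeter. Of 13677 genes 0 (0%) passed an adjusted p of 0.05 and 153 (1.12%) had an unadjusted p under 0.05, 75 (0.548%) with a slope above 0 and 78 (0.57%) below 0. DESeq2 called 0 as well. Of 39 members tested 0 passed and 0 had an unadjusted p under 0.05. The slope was above 0 in 22 of 39, with a median of 0.13, beside 56.3% and 0.09 for all genes tested. The mitotic genes had a median slope of 0.24 (13 of 22 above 0), the replication genes 0.00 (5 of 10 above 0), the D cyclins 0.28 (2 of 3) and the CDK inhibitors 0.42 (2 of 4).

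The smallest p belonged to Nuf2, a subunit of the outer kinetochore, with a slope of −2.16 (standard error 1.27, unadjusted p = 0.0968). Its CPM over the normal rats had a lowest, median and highest of 0, 0.0544 and 13.1, and the highest value came from T445F at a density of 5.90 per square millimeter. Over all 28 rats its slope was 0.43, and the pre-dropout rat T353M had 9.99 CPM. Ube2c, the conjugating enzyme of the anaphase-promoting complex, had a slope of 1.69 (standard error 1.05, unadjusted p = 0.116), with 0, 0 and 13.8 CPM over the normal rats and its highest value in T398F, the normal rat of highest density (14.5 per square millimeter). Both slopes thus lean on few rats, since the normal median of each gene lay at or near 0. With edgeR over all 28 rats, Ube2c (slope 2.93, unadjusted p = 0.0039) and Nusap1 (2.21, unadjusted p = 0.0114) were among 336 of 13407 genes under 0.05. With the number of genes detected as a covariate, Ube2c (2.70, unadjusted p = 0.00135) and Nuf2 (−2.88, unadjusted p = 0.0330) were among 489 of 13677 genes. In both fits 0 genes passed.

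Mki67 had a slope of 0.51 (standard error 1.22, unadjusted p = 0.680) and Top2a one of 0.24 (standard error 1.34, unadjusted p = 0.858) on density. The replication genes with the smallest p were Mcm7, with a slope of −0.61 (standard error 0.91, unadjusted p = 0.511), and Mcm2, with one of 0.78 (standard error 1.27, unadjusted p = 0.543). Among D cyclins Ccnd2 had 0.57 (standard error 1.02, unadjusted p = 0.580), and among CDK inhibitors Cdkn1a had 0.89 (standard error 1.06, unadjusted p = 0.404). The slope of Cdkn1b was −0.01 (standard error 0.45, unadjusted p = 0.989).

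The slope on random blood glucose was fitted over all 28 rats with sex as a covariate, in log2 units per 100 mg/dL. Of 13800 genes 0 (0%) passed an adjusted p of 0.05 and 525 (3.8%) had an unadjusted p under 0.05, 313 (2.27%) with a slope above 0 and 212 (1.54%) below 0. Of 39 members tested 0 passed and 1, Ube2c, had an unadjusted p under 0.05, a share no larger than that background. The slope was above 0 in 24 of 39 members, with a median of 0.04, beside 52.4% and 0.01 for all genes tested. DESeq2 called 22 genes, of which 0 were members. It gave 770 of 13800 genes an unadjusted p under 0.05, among them 2 of the 39 members, Mcm6 and Cdkn2c, and not Ube2c. Glucose exceeded 200 mg/dL in 2 pre-dropout rats (T389M at 443 mg/dL and T391M at 278 mg/dL) and 3 normal rats (T446M at 422 mg/dL, T392F at 361.5 mg/dL and T370M at 226 mg/dL), and these 5 rats carry most of its range.

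Ube2c had 15.2 CPM in T389M and 2.98 CPM in T391M, and 0 counts in T446M, T392F and T370M. The 2 rats with counts were thus the pre-dropout rats of high glucose, and its slope of 1.56 (standard error 0.61, unadjusted p = 0.0146), adjusted p = 1 from edgeR, turned to −1.42 in the 24 normal rats alone. Mki67 had a lowest, median and highest of 0.266, 15.2 and 49.1 CPM in the 5 rats above 200 mg/dL, against 0, 5.88 and 53.4 CPM in the other 23, and a slope of 0.26 (standard error 0.43, unadjusted p = 0.552), which was −0.34 in normal rats alone. Top2a had 0, 2.38 and 8.86 CPM in the rats above 200 mg/dL, against 0, 1.76 and 17.3 CPM in the others, and a slope of 0.21 (standard error 0.55, unadjusted p = 0.700). Kif11, the kinesin that separates the spindle poles, had 0, 0.231 and 3.57 CPM above 200 mg/dL, against 0, 0.360 and 31.7 CPM in the others, and a slope of −0.78 (standard error 0.58, unadjusted p = 0.183). The median slope of the 22 mitotic genes was −0.02.

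Of the 10 replication genes 9 had a slope above 0 on glucose and 0 passed the test. Their median slope was 0.23, beside 52.4% above 0 and a median of 0.01 for all genes tested. These 10 genes share their libraries, so the count of signs is a description. Mcm6 had the smallest p of them, with a slope of 0.52 (standard error 0.27, unadjusted p = 0.0589), and an unadjusted p of 0.0429 from DESeq2. It stood at 2.66, 27.7 and 109 CPM (lowest, median and highest) in the 5 rats above 200 mg/dL, against 0, 21.4 and 131 CPM in the other 23, with means of 39.3 ± 40.5 CPM (SD, n = 5) against 28.5 ± 28.1 CPM (SD, n = 23), so the highest value was in a rat of lower glucose. Mcm3 had 2.33, 17.9 and 27.2 CPM above 200 mg/dL, against 0, 8.37 and 40.02 CPM in the others, and a slope of 0.38 (standard error 0.37, unadjusted p = 0.316). The one replication gene with a slope below 0 was Rrm1, at −0.08 (standard error 0.24, unadjusted p = 0.744). With no sex covariate the slope was above 0 in 16 of the 39 members rather than 24.

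Of the D cyclins, Ccnd3 had 0, 3.20 and 145 CPM in the rats above 200 mg/dL, against 0, 48.98 and 343 CPM in the others, with a slope of −0.23 (standard error 0.35, unadjusted p = 0.520). Of the CDK inhibitors, Cdkn2c had 0, 7.39 and 16.4 CPM above 200 mg/dL, against 0, 1.56 and 12.2 CPM in the others, and a slope of 1.18 (standard error 0.84, unadjusted p = 0.167). It was high in T391M (278 mg/dL) and T370M (226 mg/dL) and had 0 counts in T446M (422 mg/dL) and T392F (361.5 mg/dL), while T389M (443 mg/dL) had 7.39 CPM. DESeq2 gave it an unadjusted p of 0.00943 (adjusted p = 0.483). Cdkn1b had 51.05, 63.2 and 116 CPM above 200 mg/dL, against 0, 72.99 and 152 CPM in the others, with a slope of 0.01 (standard error 0.19, unadjusted p = 0.974), and Cdkn1a one of 0.04 (standard error 0.35, unadjusted p = 0.912). The most abundant brakes of the cycle thus had slopes within 1 standard error of 0.

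**Figure D5:**
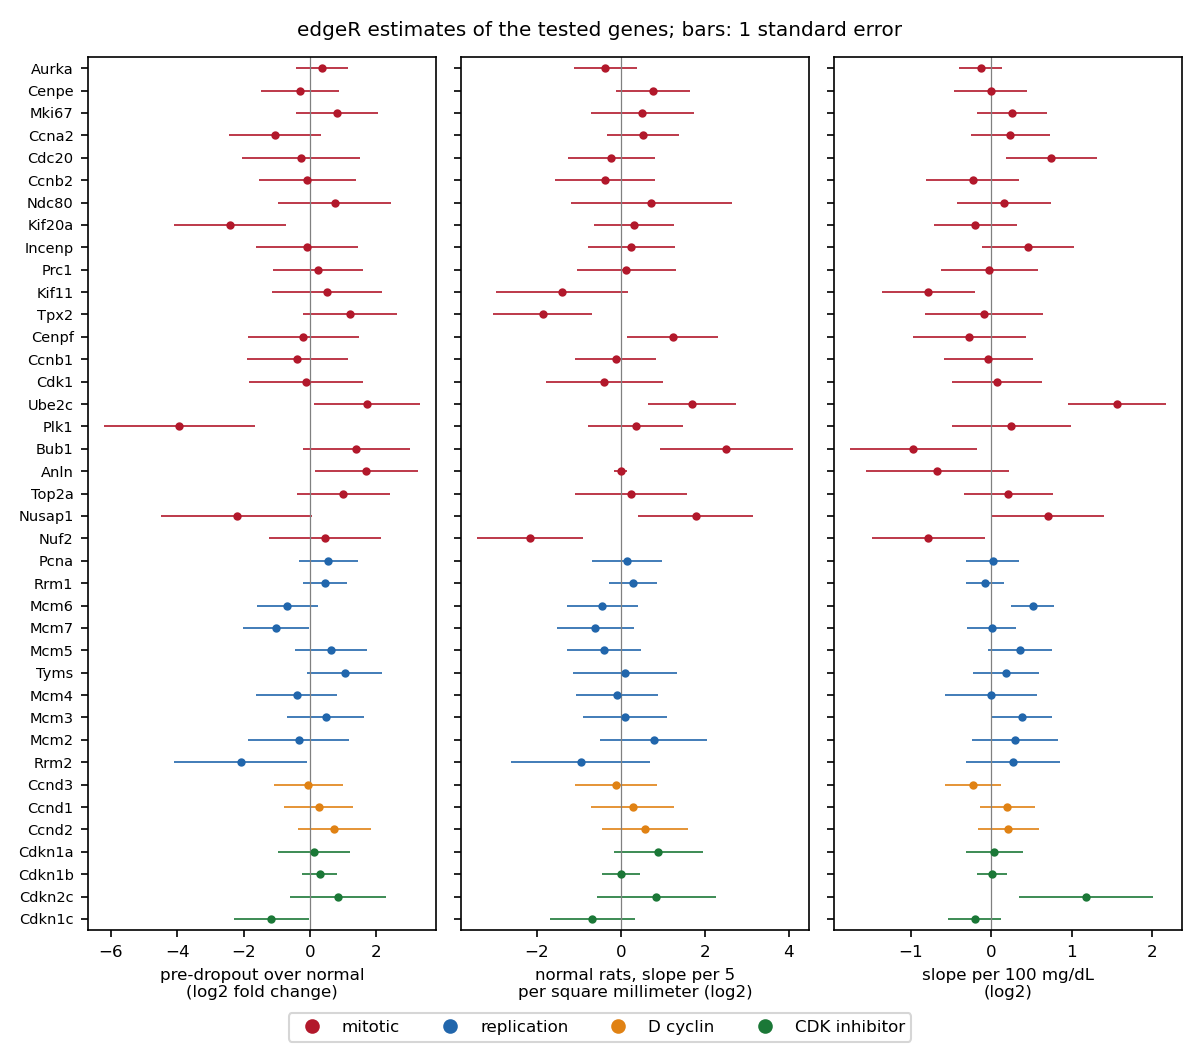
edgeR estimates for the 39 tested genes, colored by role, with 1 standard error: the log2 fold change of pre-dropout over normal rats (left), the slope per 5 acellular capillaries per square millimeter in normal rats (middle) and the slope per 100 mg/dL of glucose in all rats (right). The standard error is the estimate divided by the square root of F, which fails for an estimate near 0, as for Anln in the middle panel. Most bars of the mitotic genes are wider than 1 log2 unit to each side in the left panel, and 0 genes passed the test in any panel.

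Across rats, the level of the mitotic genes was highest in the libraries that held the most kinds of transcripts. Their mean log2 CPM over 28 rats had a Pearson r of 0.85 (Spearman rho 0.80) with the number of genes expected at the thinned depth, and r was 0.83 without the 2 rats farthest from the median, T425M and T424M. The same mean had an r of 0.09 with density, 0.02 with glucose and 0.27 with total counts. It had an r of −0.71 with the summed level of the pericyte markers, −0.65 with the endothelial markers, 0.47 with the rod markers, 0.53 with those of microglia and macrophages and 0.63 with those of lymphocytes and granulocytes. Libraries with higher mitotic levels thus held more kinds of transcripts and lower levels of vascular markers. The mean of the replication genes had an r of 0.80 with the thinned number of genes, −0.40 with pericyte markers and −0.37 with endothelial markers. All of these measures share the library, its depth and its total, and the part of other cell types or of library makeup in the mitotic levels was not tested.

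The microglia and macrophage markers summed to 4.98 to 47.3 TPM in pre-dropout rats and 1.64 to 158 TPM in normal rats. Of the 11 lymphocyte and granulocyte markers measured, 4 were at 0 in all pre-dropout rats, and the list summed to 0.352 to 44.2 TPM in pre-dropout rats and 0 to 76.7 TPM in normal rats. Both lists were low beside the endothelial and the pericyte markers in every rat. Sums of different lists do not measure the share of cells. With the number of genes detected added as a covariate, an alternative chosen after seeing the data, 21 of 39 members had a fitted pre-dropout change above 0 as before, and 0 passed.

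The 10 genes outside the list whose CPM followed the mean of the mitotic genes most closely over 28 rats were Tmem145, Neto2, Nasp, Rims2, Cacna1f, Dnmt3b, Syne1, Mfn1, Mpp3 and Trpm3, with a Spearman rho of 0.83 for Tmem145 down to 0.77 for Trpm3, of 9801 genes with a count in at least 20 rats. Nasp encodes a histone chaperone and Dnmt3b a DNA methyltransferase, whereas Rims2 and Cacna1f are known from photoreceptor synapses. Further mitotic genes outside the list had a median rho of 0.38 with the same mean (15 genes) and further replication genes one of 0.24 (30 genes), beside 0.12 for all 9801 genes.

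Further genes of the same pathway, in lists of their own, gave no call either. Of 39 further mitotic genes tested between the groups 21 had a fitted change above 0 and 0 passed. The smallest p were those of Tacc3, a spindle protein, and Troap, which had 0 counts in all 4 pre-dropout rats. In normal rats Tacc3 had 0, 1.26 and 46.4 CPM, with counts in 4 of 8 males and 12 of 16 females, and Troap had counts in 5 rats, all female (unadjusted p = 0.00686 and 0.0397). Of 53 further replication genes 28 had a change above 0 and 0 passed. At an unadjusted p under 0.05, 1 was higher and 1 lower, beside 0.196% higher and 2.66% lower over all genes tested. The higher one, Gins3, part of the replicative helicase, had a mean of 9.47 ± 13.6 CPM (SD, n = 4) in pre-dropout rats against 0.999 ± 1.99 CPM (SD, n = 24) in normal rats, and T389M held 76.1% of the pre-dropout sum. Its log2 fold change came to 3.16 (standard error 1.43, unadjusted p = 0.0327).

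Of 18 G1 regulators 9 had a fitted pre-dropout change above 0, with the smallest p for Skp2, the ubiquitin ligase subunit that removes the Cdkn1b protein (unadjusted p = 0.0865). Skp2 had 1 count in the 4 pre-dropout rats and a normal median of 0 CPM. Ccne1, the cyclin of the entry into S phase, followed with a log2 fold change of −1.97 (standard error 1.93, unadjusted p = 0.314). Of the other CDK inhibitors Cdkn2d had −0.46 (standard error 1.14, unadjusted p = 0.689) and Cdkn2b 0.49 (standard error 1.26, unadjusted p = 0.699). Of 13 genes of quiescence and of the DREAM complex, a repressor of cell cycle genes, 8 had a change above 0, with the smallest p for Lin52 at −3.54 (standard error 2.15, unadjusted p = 0.107) and Btg1 at −0.25 (standard error 0.28, unadjusted p = 0.386). On density, Kif20b had a slope of 2.78 (standard error 1.63, unadjusted p = 0.0974) and Troap one of −1.76 (standard error 1.30, unadjusted p = 0.188), the smallest p of the mitotic list. The replication genes Pola2 and Rfc5 had slopes of 3.09 (standard error 1.82, unadjusted p = 0.0976) and 1.72 (standard error 1.13, unadjusted p = 0.136). The G1 regulators Skp2 and Cdc25a had 1.69 (standard error 1.23, unadjusted p = 0.176) and 1.24 (standard error 1.33, unadjusted p = 0.355), and the inhibitors Cdkn2b and Cdkn2d had −0.74 (standard error 1.01, unadjusted p = 0.471) and −0.39 (standard error 0.84, unadjusted p = 0.646). Of the quiescence genes Dyrk1a had 0.67 (standard error 0.50, unadjusted p = 0.193) and Foxo3 had −0.57 (standard error 0.52, unadjusted p = 0.281).

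On glucose 4 of 53 further replication genes had an unadjusted p under 0.05 (3 with a slope above 0 and 1 below). Of 39 further mitotic genes 1 with a slope above 0 and 1 below had such a p. Over all 13800 genes tested the share was 3.8% (2.27% above 0 and 1.54% below). No test was made of these shares. Timeless, a protein of the replication fork, had a slope of 1.26 (standard error 0.49, unadjusted p = 0.0136). Among mitotic genes Aspm, a spindle pole protein, had −2.25 (standard error 0.85, unadjusted p = 0.0119) and Kif20b 1.08 (standard error 0.53, unadjusted p = 0.0482), and among G1 regulators Cdc25a had −1.32 (standard error 0.78, unadjusted p = 0.0971) and Cdk2 0.41 (standard error 0.38, unadjusted p = 0.283). Cdkn2d had −0.38 (standard error 0.47, unadjusted p = 0.428), Cdkn2b −0.26 (standard error 0.43, unadjusted p = 0.553), Btg1 −0.13 (standard error 0.10, unadjusted p = 0.177) and Klf2 0.15 (standard error 0.12, unadjusted p = 0.212). Over these lists 0 genes passed an adjusted p of 0.05 in any of the 3 comparisons.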

How the data were processed

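Retinal vessels of 28 Nile rats were sequenced with 1 library per rat, prepared from 100 ng of total RNA. The authors deposited expected counts, which are estimates with fractions and are not scaled between libraries, and TPM for 18970 genes, as values of their comparative pipeline (CRSP), which assigns reads without a Nile rat genome. The genes carry mouse symbols and identifiers, so the roles given are those known from mouse and human. Genome-mapped values were not used here. The paper compared both methods on these libraries and found only a moderate correlation of their TPM. Counts from CRSP were more overdispersed, and the paper proposes that genome mapping is the more reliable. How far CRSP shaped the spread and the zeros of the 43 genes was not tested. The assignment of CRSP to these tables rests on their mouse identifiers. No coordinates or sequences are given. The authors' TPM depend on the transcript lengths of that pipeline.

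Counts were rounded to whole numbers and tested with edgeR 4.0.16 in R 4.3.3 (TMM, filterByExpr with a minimum count of 10, quasi-likelihood F test, Benjamini-Hochberg adjustment over all genes tested). Pre-dropout rats (17 to 18 acellular capillaries per square millimeter) were set against normal rats (below 16), the limits of the study, whose own tool, EBSeq, was not used. Slopes on density and on glucose had sex as a covariate. Glucose is in mg/dL by the study's methods. Intervals and limits of a count of 0 cover counting error only. Alternatives were DESeq2 1.42.0 (test and size factors), no filter, at least 1 CPM in 14 libraries, limma 3.58.1 on log2(TPM + 1) or log2(TPM + 0.1), sex as a covariate or not, males only, libraries of at least 1e+06 counts, and rats left out. Tests were checked on simulated data with known changes in genes drawn at random from those tested, and the outcome is not given here.

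The 43 genes and all lists were chosen with earlier results of these data known. Full values are given for the 3 members of each role with the highest mean TPM, the members with the smallest p in each comparison (2 of the mitotic and of the replication genes, 1 of the other roles), Mki67 and Top2a. From the other lists, the 2 genes with the smallest p in each comparison are named (except 1 gene, which is counted in its list but not reported here), and 10 genes most like the mitotic mean are given with no test. Other members named with values were chosen after their values were seen.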

Additional observations from a re-analysis of the deposited data

Results flagged for a closer look

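In 13 of the 43 genes the CPM of 1 of the 4 pre-dropout rats stood apart, with most of the group's range lying between it and its nearest neighbor (more than the critical share for 4 values). The critical share is set to be passed in about 1 of 20 groups of normally distributed values, and sparse counts are not such values. All genes are therefore the reference here. Over all 17774 genes with a count such a gap was found in 19.4%, against 30.2% of the 43, and over the 13800 genes tested in 15.8%, against 9 of the 39 members tested (23.1%). No test was made of these shares, and the count is a description. The rat was always the highest of the 4. Of the 13, T391M held 5, T353M 3, T389M 3 and T407M 2.

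In T391M the share of the range was 0.917 for Ccnb1 (13.98 CPM, against 1.15 CPM in the nearest rat), 0.884 for Kif20a and 1 for Rrm2, Bub1b and Cdca8, where the other 3 rats had no count. Bub1b and Cdca8 had 1 count each, and where only 1 rat has a count the share is always 1. In T353M it was 0.983 for Cdk1 (17.4 CPM, against 0.298 CPM), 0.911 for Nuf2 and 0.889 for Spc25, all of them genes of mitotic entry or the kinetochore. In T389M it was 0.980 for Aurkb, 0.930 for Cdc20 and 0.912 for the inhibitor Cdkn1a (39.9 CPM, against 16.96 CPM). In T407M it was 0.899 for Top2a (17.3 CPM, against 3.46 CPM) and 0.840 for the inhibitor Cdkn1b (133 CPM, against 74.4 CPM).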

How the results depend on the processing

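Between the groups, where 0 genes were called, edgeR called 72 genes with no filter on low counts (1 of them a member, Spc25), DESeq2 called 5, and 2 were called with the number of genes detected as a covariate. For density 45 genes were called with no filter. For glucose 152 were called with no filter, 22 by DESeq2, 2 without the 2 rats farthest from the median (T389M and T446M), 2 in normal rats only and 12 with the number of genes detected as a covariate, which was chosen after seeing the data. Leaving out each pre-dropout rat gave 0 to 0 calls. Of 534 values of the genes named by the rule (not of all members) under 32 alternatives 520 kept their sign and their side of the threshold and 14 changed sign, none of them called. Between the groups these were Cdkn2d (0.0646 by limma on log2(TPM + 0.1), 0.0252 with sex), Rrm2 (1.31 with sex), Troap (0.00 with sex) and Top2a (−0.17 without pre-dropout replicate 4, T407M, and up to 1.35 without another pre-dropout rat). For density they were Top2a (−0.26 with no sex covariate, −0.11 with the number of genes detected) and Nuf2 (0.43 over all 28 rats). For glucose they were, without T389M and T446M, Ccnd3 (0.043), Cdkn2d (0.0671) and Top2a (−0.49), and in normal rats only Kif20b (−0.50), Mki67 (−0.34) and Ube2c (−1.42). Over all members tested, the number that changed sign was 0 to 10 between the groups (10 with sex), 0 to 9 for density and 0 to 14 for glucose (14 without T389M and T446M). The cause of these changes was not tested. Members detected differed by 2.29 between the groups at 1 count, 3.08 at 5 counts, 2.25 at 1 TPM and 2.53 after thinning. No paired analysis was possible because each rat gave 1 library and belonged to 1 group. Of all pairs of a mitotic gene and a rat 36.5% had a count of 0, and the size of difference detectable for the members was not measured.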

Other observations

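The summed TPM of the replication genes was 116 to 186 in pre-dropout rats and 10.7 to 231 in normal rats, that of the D cyclins 24.8 to 127 TPM in pre-dropout rats and 0.861 to 214 TPM in normal rats, and that of the CDK inhibitors 239 to 376 TPM in pre-dropout rats and 5.80 to 866 TPM in normal rats. All pre-dropout sums lay inside the normal range, with 4 rats against 24.

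The lowest sums came from different normal rats. T448M, with counts for 7503 genes, had the lowest replication sum and the lowest CDK inhibitor sum, yet its mitotic sum was 70.5 TPM, and T425M had the lowest D cyclin sum beside the highest Cdkn1c of any rat (55.6 TPM). Cdkn1a was the most abundant of the 43 genes in 16 rats and Cdkn1b in 8, and Aurka, Ccnb2, Ndc80 and Rrm1 were in 1 rat each.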
